A study of Rattus norvegicus with 8 samples.

Results

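The regions described here are isolated glucocorticoid receptor (GR) binding sites of rat hippocampus that were called as peaks in rats without stress and not in restrained rats. There were 980 of them among the 7298 regions of the merged list of strong GR sites. They were selected on the measured peak calls of both groups. A region was taken when it overlapped at least 1 peak of the no stress control (NSC) list by 1 bp or more, overlapped no peak of the stressed list, and had no other merged region within 10 kb on its chromosome, measured edge to edge. They made up 13.4% of the merged list and 17.1% of its 5745 isolated regions.

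GR is a nuclear receptor that stays mostly in the cytoplasm until it binds corticosterone, the main glucocorticoid of the rat, and then moves to the nucleus and attaches to DNA at glucocorticoid response elements or through other bound factors. Most of its sites lie away from promoters, in chromatin that other factors have already opened. The hippocampus carries much GR and takes part in the feedback by which glucocorticoids restrain the stress axis. ChIP-seq recovers DNA bound by GR with antibodies and counts the sequenced tags that pile up at each place, so a peak is a place where tags were denser than their surroundings.

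All animals were adrenalectomized male Sprague-Dawley rats aged 9 weeks, in which the adrenal source of corticosterone had been removed. They drank saline with corticosterone until 12 hours before the experiment and then received corticosterone by vein for 30 minutes. NSC rats stayed in their home cages during the infusion, whereas rats of the stressed group were restrained for 30 minutes. Each group had 2 GR ChIP libraries and 2 input libraries from whole hippocampus, each made from pooled animals, so cell types and single animals are not resolved. In whole tissue, binding in fewer cells and weaker binding in every cell cannot be told apart. Each peak carries 1 tag density and 1 z-score for its group with both replicates combined, so no value below has a replicate error and these lists allow no test between NSC and stressed rats.

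The call that chose these regions is a yes or no call in each group. In the whole merged list 16.3% of regions had an NSC peak and no stressed peak, and 24.8% had a stressed peak and no NSC peak. Nothing is read from the number of members against these shares, because the rule used the same calls. A region without a stressed peak has no stressed tag density in these lists, which is not a measured value of zero. The lists keep only peaks found in both replicates of a group, so a peak called in a single replicate is not seen. Of all 1187 regions with only an NSC peak, 82.6% were isolated (95% Wilson interval 80.3 to 84.6), against 77.5% of regions with peaks in both groups (76.3 to 78.8) and 79.0% of regions with only a stressed peak (77.1 to 80.8). Intervals here and below run over regions, cover counting error only and do not include differences between replicates.

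Each of the 980 members held exactly 1 NSC peak, and in all 980 the merged region had the start, end and tag density of that peak. Their NSC tag density, the highest normalized pile-up of tags in the peak, had a median of 14.8 (95% interval of the median 14.6 to 15.0). The middle part of the members, between the quartiles, ran from 13.2 to 16.9, and the full range was 11.6 to 47.7. As the merged list admitted NSC peaks from a tag density of 11.46 upward, the members lay close above the limit of the list. Tag density was under 20 in 930 members (94.9%), 20 or more in 50, and 30 or more in 5. Isolated regions with peaks in both groups had a median NSC tag density of 19.9 (19.6 to 20.3), and their range reached 66.7.

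The share of isolated NSC peaks without a stressed peak fell steeply as tag density increased. From the limit of the list up to a tag density of 13, 207 of 346 isolated regions with an NSC peak had no stressed peak, which is 59.8% (54.6 to 64.9). Between 13 and 15 the count was 312 of 610, or 51.1% (47.2 to 55.1). These 2 lowest classes were thus made up more of NSC-only than of shared regions. Between 15 and 20 the share was 31.7% (29.2 to 34.2), from 411 members and 887 shared regions. Between 20 and 30 it was 4.35% (3.27 to 5.77), with 45 members beside 989 shared regions. At 30 or more it was 0.734% (0.314 to 1.71), with 5 members beside 676 shared regions. Tag density took part in choosing the merged list, so these shares describe the members and test nothing.

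**Figure D1:**
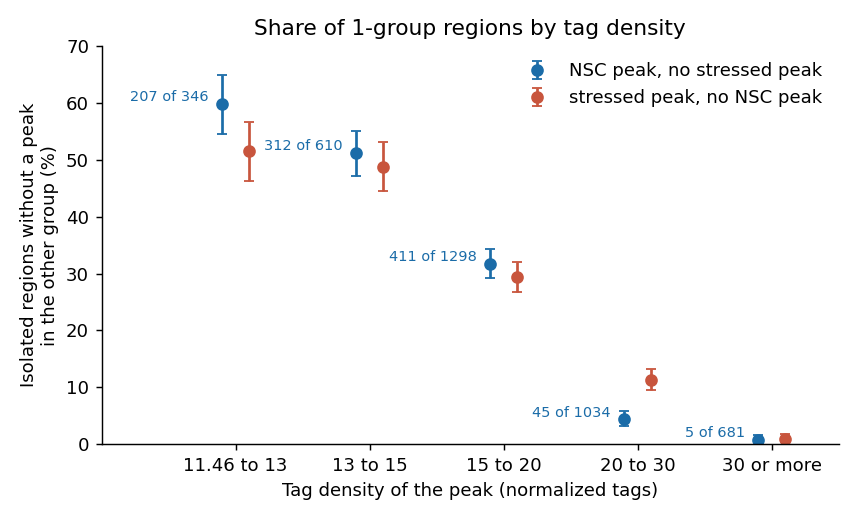
Share of isolated regions that had a peak in only 1 group (vertical axis, %), by the tag density of that group's peak in normalized tags (horizontal axis); points are shares, bars 95% Wilson intervals, and the blue numbers are NSC-only regions of all isolated regions with an NSC peak. In the NSC group the share goes from 59.8% in the lowest class to 0.734% in the highest, and between 20 and 30 the stressed share of 11.3% lies above the NSC share of 4.35%.

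The same count for stressed peaks gave 51.5% (46.2 to 56.7) in the lowest class, 48.8% (44.4 to 53.2) between 13 and 15, and 29.4% (26.8 to 32.1) between 15 and 20. These intervals overlap those of the NSC peaks in the same classes. Between 20 and 30 they did not overlap, as 128 of 1135 isolated regions with a stressed peak of that density lacked an NSC peak, or 11.3% (9.57 to 13.2). In that class, regions of a single group were therefore a larger share of stressed peaks than of NSC peaks. No replicates support a test of this difference.

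The count of members against their stressed counterparts depended on the limits of the lists. Isolated regions with only a stressed peak numbered 1429, which gives 0.686 members for each (0.632 to 0.744). The merged list admitted stressed peaks from a tag density of 9.37, below the 11.46 required of NSC peaks. When 11.46 was required of both groups, 895 stressed-only regions remained and the ratio was 1.09. The lists also differed in their lowest z-score, at 9.01 for NSC and 9.65 for stressed peaks. A z-score under the lowest of the stressed list was found in 183 members (18.7%, 16.4 to 21.2), compared with 80 of 2989 isolated shared regions at or above the NSC limit (2.68%, 2.16 to 3.32). Leaving out these 183 members and holding both groups to 11.46 brought the ratio to 0.891. Whether members outnumbered their stressed counterparts thus depended on the limits applied.

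Isolated regions with peaks in both groups give stressed tag densities beside NSC peaks as strong as those of the members, but only where a stressed peak was called. In the lowest class, 207 of 346 isolated regions with an NSC peak have no stressed value and are left out. The stressed values below are therefore selected by the call that the rule used. They do not give the usual stressed level at NSC peaks of that strength. Where the NSC tag density lay between the limit of the list and 13, the stressed tag density of 139 shared regions had a median of 14.5 and ranged from 5.89 to 34.1. In 12 of these (8.63%) it was under the stressed limit of 9.37. Between 13 and 15 the median stressed value was 15.96 over 298 regions, and 8 were under that limit. Between 15 and 20 the median was 18.2 over 887 regions, again with 8 under the limit, and above 20 none of 1665 regions fell below it. Stressed peaks too weak for the merged list were therefore a small group at these places. They count as stressed peaks in the rule, so no member overlapped even such a weak peak of the stressed list. That list holds only peaks found in both replicates. Weaker stressed binding at the members, or a peak in a single stressed replicate, would not appear in it. Counting only stressed peaks at or above 9.37 would have raised the number of members from 980 to 1008.

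The deposited tag densities fell on regular steps. All 19506 NSC values and all 23970 stressed values could be written, within 0.0001, as a whole number of steps of 0.457 (NSC) or 0.496 (stressed) less a whole number of a separate step. In the NSC list, 21.0% of values were whole multiples of the 0.457 step alone. Pooled ChIP tags less scaled input tags would give such values, but the sources used here do not say so, and the size of the subtracted step is not unique. It could be 0.241, 0.697 or 1.15 in the NSC list, with the same number of subtracted steps each time. Read this way, with the smallest of these, the highest point of a member held at least 34 added steps in the median (range 26 to 107), less a median of 3 subtracted steps (0 to 35).

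If 1 added step is 1 tag, the exact Poisson interval of that count gives a rough counting error of each peak height. It takes the subtracted steps as exact. It also leaves out that each height is a maximum and had to pass the limit of the list. The lower bound fell under the NSC limit of 11.46 in 704 members (71.8%, 68.9 to 74.6), and under the stressed limit of 9.37 in 338 members (34.5%, 31.6 to 37.5). At this depth the height of most members could not be told from the limit of the list. The lower bound follows mainly from peak height, and this share was not computed for shared or stressed-only regions. It is therefore not shown to be particular to members. The intervals cover counting error only and rest on the reading of the steps given above. The median number of subtracted steps was 3 in members and in shared regions between 15 and 20, and 3 against 4 between 13 and 15. It was 2 against 4 between 20 and 30. In the 5 members of 30 or more it was 6, against 4 in shared regions of that density.

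Members were also weaker in z-score, by which the peak caller scores enrichment over the local background. Their median was 10.98 (10.8 to 11.1), with quartiles of 9.89 and 12.5 and a range of 9.01 to 127. Of 980 members, 498 (50.8%, 47.7 to 53.9) had a z-score under 11. Of the 2989 isolated shared regions at or above the NSC limit, 333 did (11.1%, 10.1 to 12.3). Within classes of tag density the members still had the lower medians. Tag density was not fully matched within the upper classes. The median number of added steps was 38 in members and 40 in shared regions between 15 and 20. Between 20 and 30 it was 49 and 54. The median z-score was 10.1 in members and 11.01 in shared regions from the limit to 13, 10.4 and 11.6 between 13 and 15, and 11.6 and 13.6 between 15 and 20. It was 14.6 and 19.3 between 20 and 30. Stressed-only regions also had lower medians than the stressed peaks of shared regions between 13 and 15 (11.2 against 11.8), between 15 and 20 (11.9 against 13.9) and between 20 and 30 (14.3 against 19.5), but not from the limit to 13 (11.7 against 11.2). The z-score is part of peak calling, so it is not independent of the calls behind the rule and was not tested.

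**Figure D2:**
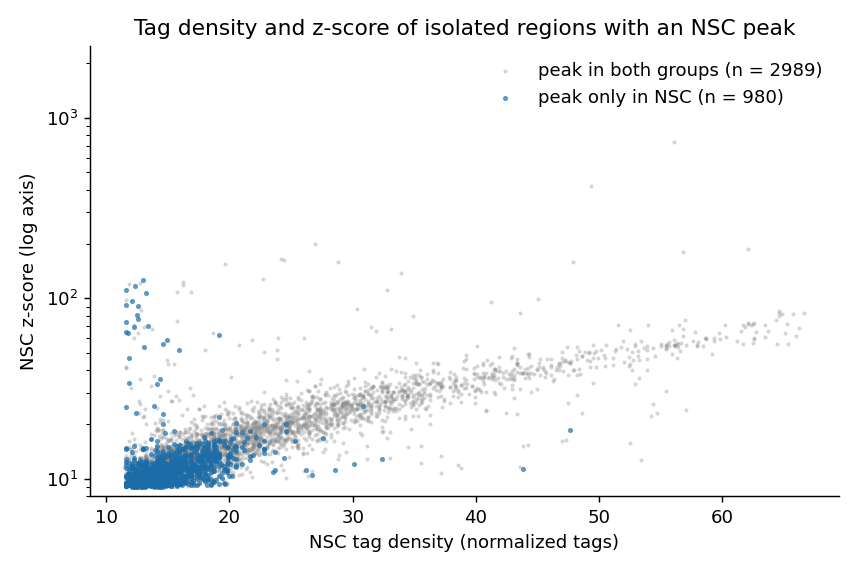
NSC z-score (vertical log axis) against NSC tag density in normalized tags (horizontal axis); each blue point is 1 of the 980 regions with a peak only in NSC, each gray point 1 of 2989 isolated regions with peaks in both groups and an NSC tag density at or above the limit of the list. Most blue points sit at the lower left, with a median tag density of 14.8 and a median z-score of 10.98, and a small column of blue points stands above them at low tag density and high z-score.

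Length followed the same order. Members spanned a median of 417 bp (404 to 430), with quartiles of 333 and 490 bp and a range of 123 to 1460 bp. From the limit to 13 the NSC peaks of members had a median length of 350 bp against 421 bp in shared regions. The medians were 379.5 and 448 bp between 13 and 15, 465 and 518 bp between 15 and 20, and 543 and 620 bp between 20 and 30. In each of these classes the NSC peaks of members were therefore shorter in the median than those of shared regions, by 53 to 77 bp. In the upper classes the members were also somewhat lower in height, as given above, and the part of height in this difference was not tested. Stressed-only regions were likewise shorter than the stressed peaks of shared regions between 13 and 15 (365 against 423 bp in the medians). The same held between 15 and 20 (429 against 511 bp) and between 20 and 30 (498 against 603 bp). From the limit to 13 the medians were 375.5 and 398 bp, a difference of -22.5 bp with an interval of 38.6 bp to each side. Among the members, longer peaks had higher z-scores, with a Spearman correlation of 0.80 across 980 regions. Tag density was less closely tied to z-score (0.42) or length (0.47). All of these measures come from the same tags, and regions are not independent replicates.

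**Figure D3:**
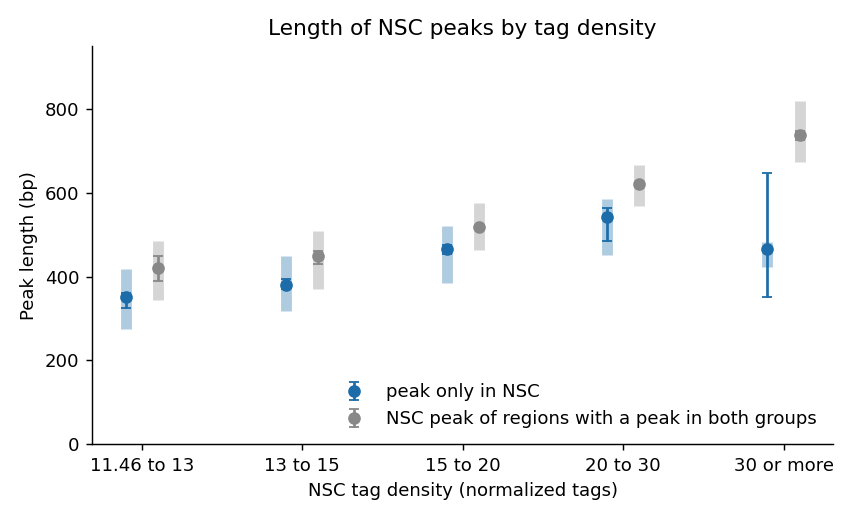
Length of NSC peaks (vertical axis, bp) by NSC tag density in normalized tags (horizontal axis), for isolated regions with a peak only in NSC (blue) and with peaks in both groups (gray); points are medians, thin bars 95% intervals of the median and wide bars the span between the quartiles. The blue medians lie below the gray ones in every class, for example at 465 against 518 bp between 15 and 20. The highest class has only 5 blue regions, and its thin blue bar spans all 5 lengths.

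The member with the highest tag density was on chromosome 17 of rn5 at 51676552 to 51677033, a 482-bp peak with a tag density of 47.7 and a z-score of 18.6. Under the reading of the steps given above, its counting interval ran from 38.9 to 57.9, far above the limits of both lists. The nearest stressed peak began 47.1 kb away. The next member in height lay on chromosome 2 at 229495862 to 229496284, with a tag density of 43.8 (counting interval 35.4 to 53.6) and a z-score of 11.3. No stressed peak lay within 405 kb of it.

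A member on chromosome 4 at 237196882 to 237197347 had a tag density of 32.4 and a z-score of 12.9. On chromosome 3 the member at 116668426 to 116669071 had a tag density of 30.9 after the subtraction of 35 steps, the most of any member. It was also the only one of these 5 with a z-score above 25, at 25.4. The fifth, on chromosome 1 at 170517943 to 170518292, had a tag density of 30.1 and a z-score of 12.1. The median z-score of these 5 was 12.9 and their median length 466 bp, while 676 shared regions of 30 or more had medians of 33.4 and 737 bp. The 7 isolated stressed-only regions of 30 or more were likewise below shared regions of that stressed tag density, with a median z-score of 13.2 against 34.6 and a median length of 464 against 728 bp. The lengths of the 5 members ran from 350 to 646 bp.

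At the other end, 3 members shared the lowest tag density of 11.6, on chromosome 1 at 127009134 to 127009491, chromosome 11 at 42288952 to 42289545 and chromosome 17 at 56809924 to 56810175. Their counting interval was 7.30 to 17.3 in each. The lowest z-scores, between 9.01 and 9.02, belonged to members of 252 to 257 bp on chromosome 3 at 135288748 to 135288999, chromosome 14 at 38692079 to 38692333 and chromosome 1 at 12285512 to 12285768. Their tag densities were 12.8, 12.5 and 12.5. The shortest member was a 123-bp peak on chromosome 5 at 159026596 to 159026718 with a tag density of 16.2. The other 2 of the 3 shortest members measured 156 bp (chromosome 4 at 29564391 to 29564546) and 166 bp (chromosome 20 at 49394638 to 49394803).

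A small set of members had high z-scores at low tag density. In 25 members (2.55%, 1.73 to 3.74) the z-score was 25 or more, a limit chosen after the values were seen, and their median tag density was only 12.5. The highest z-scores were 127 on chromosome 13 at 51802054 to 51802494, 117 on chromosome 11 at 16785633 to 16786124 and 111 on chromosome 5 at 60330439 to 60330948. Their tag densities were 12.98, 12.3 and 11.6. In isolated shared regions at or above the NSC limit, a z-score of 25 or more went with a median tag density of 35.4. Of these 2989 regions, 756 (25.3%) had such a z-score. Shared regions below that limit were not counted here. Stressed-only regions held more of this low and high-scoring kind, with 365 of 1429 (25.5%, 23.3 to 27.9) at 25 or more and a median tag density of 10.1 among these. At the NSC limit of 11.46 their share was 7.04% (5.54 to 8.91), still above the share in members.

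The high-scoring members also had more peaks around them. A stressed peak lay within 10 kb of 12 of these 25 members (48.0%, 30.0 to 66.5) but of only 40 of the other 955 (4.19%, 3.09 to 5.65). Another NSC peak lay within 10 kb of 13 of the 25 and of 35 of the 955. The member with the highest z-score was also the closest of all to a stressed peak, which lay 228 bp away with a tag density of 8.28 and a z-score of 82.4. Leaving out all 25 changed the median z-score of the members from 10.98 to 10.9, and moved neither their median tag density nor their median length.

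For most members no other peak of either group lay within 10 kb, a window that the rule had already cleared of other merged regions. Within 50 kb a stressed peak was found for 41.9% of members. A stressed peak of any strength lay within 1 kb of 7 members (0.714%, 0.346 to 1.47) and within 10 kb of 52 (5.31%, 4.07 to 6.89). Another NSC peak, too weak for the merged list, lay within 10 kb of 48 members (4.90%, 3.71 to 6.43). Of the 980 members, 908 had neither, and 28 had both. The 70 stressed peaks within 10 kb had tag densities from 4.16 to 9.32, since the rule on neighbors removes members close to a stronger one. The median distance from a member to the nearest stressed peak was 66.1 kb, and to the nearest other NSC peak 65.2 kb. Members thus lay about as far from the peaks of the group in which they were not called as from those of their own.

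These distances were close to those of shared regions of like strength. Among 1324 isolated shared regions with an NSC tag density under 20 and at or above the limit of the list, another stressed peak lay within 10 kb of 4.23% (3.27 to 5.45), and the median distance was 69.3 kb. All isolated shared regions together gave 8.09% (7.22 to 9.07). Isolated stressed-only regions stood apart, as another stressed peak lay within 10 kb of 23.5% (21.4 to 25.8) of them. At a tag density of 11.46 or more that share was 7.26% (5.74 to 9.15). Within 500 bp, 3 members (0.306%) had a stressed peak beside them that they did not overlap.

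**Figure D4:**
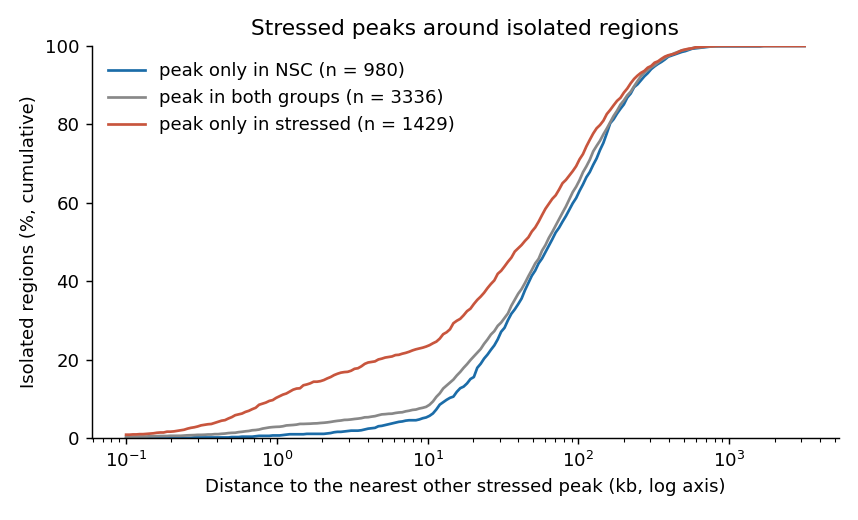
Cumulative share of isolated regions (vertical axis, %) with another stressed peak within a given edge-to-edge distance (horizontal log axis, kb), for regions with a peak only in NSC, in both groups and only in the stressed group. At 10 kb the NSC-only curve is at 5.31%, the curve for both groups at 8.09% and the stressed-only curve at 23.5%.

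The 3 members closest to a stressed peak were at 228 bp (described above), at 279 bp on chromosome 4 at 39179109 to 39179624, and at 480 bp on chromosome 13 at 24555620 to 24555994. All 3 had z-scores above the median of the members, at 127, 23.2 and 58.4. The longest member, 1460 bp on chromosome 14 at 92690804 to 92692263, had a stressed peak 567 bp from its edge, a z-score of 24.98 and a tag density of 11.6. The next longest measured 878 bp (chromosome 19 at 38885197 to 38886074) and 854 bp (chromosome 16 at 14768531 to 14769384), with z-scores of 51.4 and 64.4. The tag densities of these 2 were 15.9 and 11.8, above and below the median of the members.

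The member farthest from any stressed peak was on chromosome 10 at 48955927 to 48956300, 1.61 Mb away, with a tag density of 14.6 and a z-score of 9.73. Members on chromosome 3 at 51268501 to 51268950 and at 100674127 to 100674610 followed, at 745 and 726 kb. The gap from a member to the next merged region had a median of 98.3 kb, with quartiles of 34.6 and 229 kb, similar to the median of 95.2 kb in isolated shared regions. The widest gap was 3.83 Mb, for a member on chromosome 20 at 57545451 to 57546004, and the next were 2.05 Mb for a member on chromosome 4 at 14577510 to 14577761 and 1.61 Mb for the member on chromosome 10 just described.

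Members were found on all 20 autosomes and on the X chromosome. On the autosomes they made up 17.3% (16.3 to 18.3) of isolated regions, and on single autosomes from 12.4% (chromosome 13, 27 of 217) to 23.4% (chromosome 19, 37 of 158). Chromosomes 18 and 4 followed chromosome 19 at 21.9% and 21.3%. The intervals of chromosomes 19 (17.5 to 30.6) and 4 (17.3 to 26.0) lay just above the 17.1% of all isolated regions. With 21 chromosomes set side by side, an interval that misses the common share carries little weight.

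The X chromosome had the lowest share, with 9 members among 127 isolated regions (7.09%, 3.77 to 12.9). It also had the highest share of stressed-only regions, at 56 of 127 (44.1%, 35.8 to 52.8) against 24.4% on the autosomes. Shared isolated regions on X were weaker than on the autosomes, with a median NSC tag density of 12.8 against 20.05. The animals were male, and a link of sex to this difference was not tested. With 11.46 required of both groups, X kept 63 of its 127 isolated regions and the autosomes 4924 of 5618. On X 9 of the 63 (14.3%) were then members and 15 (23.8%) stressed-only, beside 19.7% and 17.9% on the autosomes.

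**Figure D5:**
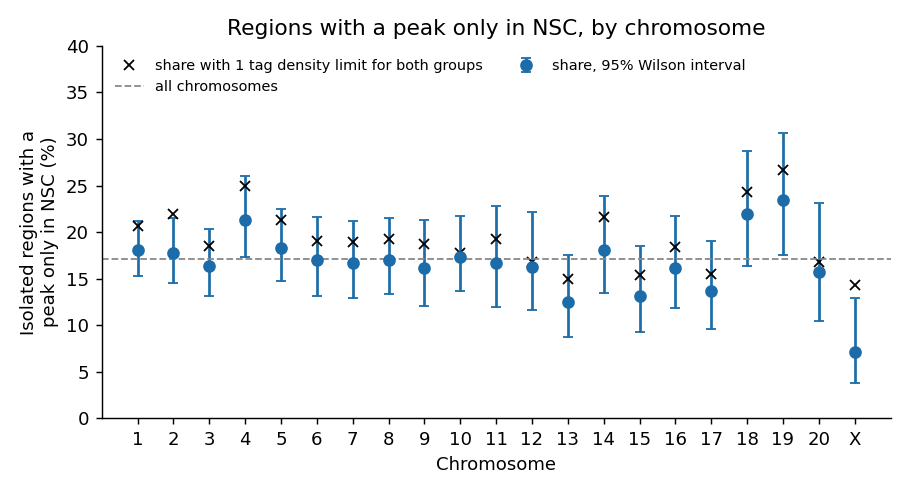
Share of isolated regions with a peak only in NSC (vertical axis, %) on each chromosome (horizontal axis); points are shares with 95% Wilson intervals, crosses the shares when 1 tag density limit was applied to both groups, and the dashed line is the share over all chromosomes. The X chromosome is lowest at 7.09% and rises to 14.3% under 1 limit, and chromosome 19 is highest at 23.4%.

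At the edges of the rule, the members with the smallest accepted gaps lay 10038 bp (chromosome 2 at 238432080 to 238432462) and 10085 bp (chromosome 2 at 46905280 to 46905749) from the next merged region, with tag densities of 14.4 and 17.8. The NSC-only regions just left out lay 9830 bp (chromosome 1 at 194018581 to 194019026) and 9731 bp (chromosome 12 at 26459131 to 26459568) from it, with tag densities of 12.7 and 18.7. In the 3336 isolated regions with peaks of both groups, the NSC and stressed peaks shared a median of 517 bp. They shared under 100 bp in 19 of these regions and under 50 bp in 10, which were therefore not members. The fewest shared bases were 2 (chromosome 9 at 59616908 to 59617371, NSC tag density 9.30 and stressed 9.37) and 6 (chromosome 14 at 52567666 to 52568232, 7.98 and 10.5).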

How the data were processed

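GR ChIP-seq and input libraries of rat hippocampus were made for NSC and stressed rats, 2 of each per group (8 libraries). Per the paper's methods and the labels, Bowtie2 placed the tags on rn5, duplicates were discarded, tags were lengthened at their 3′ ends, density was set against input, and Hotspot kept the peaks found in both replicates outside simple repeats. The maximum tag density deposited per peak is a coverage signal with 1 value per group. The deposited z-score is a score of the peak caller, and the p-value deposited beside it was read but not used. The strongest peaks of each group were merged by the authors.

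Regions were classed by overlap (1 bp) and gaps (10 kb) between these lists, start and end positions included. Where a region held several peaks of a group, the highest was used. Shares have 95% Wilson intervals, medians 95% intervals from their order statistics. Class limits for tag density were 13, 15, 20 and 30. The members, class limits and alternatives were chosen with earlier results of these data known. Regions named are the 5 highest and 3 lowest in tag density, the 3 highest and lowest in z-score, length and distance to a stressed peak, the 3 farthest from any merged region, and those next to the limits of the rule. The depth of the libraries is not given in the sources used here, and depth enters only through the steps of tag density. The classing and the search for steps were tested on simulated data. Python 3.11.15 was used with numpy 2.4.6, scipy 1.17.1, pandas 2.3.3 and matplotlib 3.10.9. Genes, sequence and motifs at the members need the rn5 genome and annotation, which were not used here.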

Additional observations from a re-analysis of the deposited data

How the results depend on the processing

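No paired analysis was possible because each peak has 1 value per group with both replicates combined, and for the same reason no replicate could be left out. Motif content was not run. Other overlap rules, distances of 500 bp and 1 kb to a stressed peak, gaps of 5 and 20 kb and the stressed limit gave 868 to 1039 members, against 980. Leaving out members under the lowest stressed z-score, an alternative added after the data were seen, gave 797. The ratio of NSC-only to stressed-only regions, 0.686, moved to 1.09 with 1 tag density limit, to 0.558 without members under the lowest stressed z-score, and to 0.891 with both; the last 2 were added after the data were seen. The share of members on X relative to its share of isolated regions, 0.415, was 0.127 relative to its share of NSC peaks. Replacing members by stressed-only regions turned the difference in median z-score from the shared regions, in the class below 13, from -0.92 to 0.44, with an interval of 0.667 to each side. In the other 4 classes this difference was also negative for stressed-only regions, from -0.54 to -21.3. The shares by tag density in 5 nearly equal parts ran from 55.4% to 0.757%. Of 62 alternatives, 52 left the value within its interval or, for counts, within 1.5 times. The 62 include those that put stressed-only regions in place of members, which are a different set of regions. Several others hardly changed the set of members, with counts from 973 to 982, so the tally is a weak check. Counting error limits each tag density, and differences between replicates could not be measured.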
